A study of Mus musculus with 9 samples.

Results

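The genes described here build and work the actin cytoskeleton of 4T1 cells: the actins, the proteins that bind along actin filaments, non-muscle myosin II and its light chains, serum response factor (SRF) with the signalling genes listed alongside it, and the factors that assemble and take apart filaments. They were a list of 40 gene symbols, looked up in the GENCODE vM21 annotation, and not chosen by a threshold on these data. The symbols corresponded to 41 annotated loci, because Myl12b is annotated at 2, and all 41 had values in both deposited tables, out of 16962 genes in either table. Of these, 37 reached an FPKM (fragments per kilobase of transcript, scaled to the mapped fragments of the library) of 1 in 3 or more of the libraries compared, and these were tested. The other 4 (Cnn1, Myl9, Mylk and Vil1) did not reach that level.

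4T1 is a mouse mammary carcinoma line. Poly(A) RNA was sequenced in 9 libraries, 3 of each group. The controls (shCTRL) carried a negative control hairpin and were labelled WT, and the cells of the other 2 groups (shYap-1 and shYap-2) were labelled as knocked down for Yap by different hairpins. All groups are the same cell line, so no group is free of a hairpin, and neither the hairpin sequences, the time after knockdown nor the use of clones or pools is given in the sources used here. The labels do not say that replicates were separate cultures, so p-values measure only the spread between these libraries. RNA was averaged over all cells of a sample, so more cells with a transcript and more transcript per cell cannot be told apart.

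Actin monomers (G-actin) assemble into filaments (F-actin), which myosin II slides past each other to make tension, and the small GTPase RhoA sets both steps in motion through its kinases ROCK1 and ROCK2 and the formin mDia1. SRF reads this state: G-actin holds its cofactors MRTF-A and MRTF-B in the cytoplasm, filament assembly frees them, and SRF then drives actin, calponin, transgelin and myosin light chain genes through a promoter element called the CArG box. YAP, the co-activator that the Hippo pathway restrains and that acts through TEAD factors, responds to the same tension and is known to affect several of these genes in other cells.

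Yap1 itself checked the labels. Its FPKM were 49.3, 48.3 and 48.8 in the controls, against 8.03, 9.05 and 9.23 for shYap-1 and 11.04, 10.4 and 9.79 for shYap-2. Every knockdown library was far below every control, by -2.35 on the log2(FPKM + 1) scale with shYap-1 (SE 0.0701, adjusted p = 9.3e-07) and by -2.13 with shYap-2 (SE 0.0496, adjusted p = 4.26e-09). Positions of genes are those of GENCODE vM21 on GRCm38. Here and throughout, tests are limma's moderated test with Benjamini-Hochberg adjustment over all genes, and the log2(FPKM + 1) scale is used, on which genes of low FPKM show less than their true fold change. Estimated depth was between 19.6 and 28.4 M fragments per library. Replicate 2 of shYap-1 stood apart from replicates 1 and 3: over 10645 genes its deviation from their mean rose with the GC content of the transcript (Spearman's correlation 0.709, a description across genes, which are not independent replicates), and over the 37 tested members it was 0.684. It was farthest below them for Rock2 (by -0.81), Rock1 (-0.68), Tmsb10 (-0.65) and Tmsb4x (-0.60), and farthest above for Actb (0.34), Myl6 and Rhob (both 0.33).

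**Figure D1:**
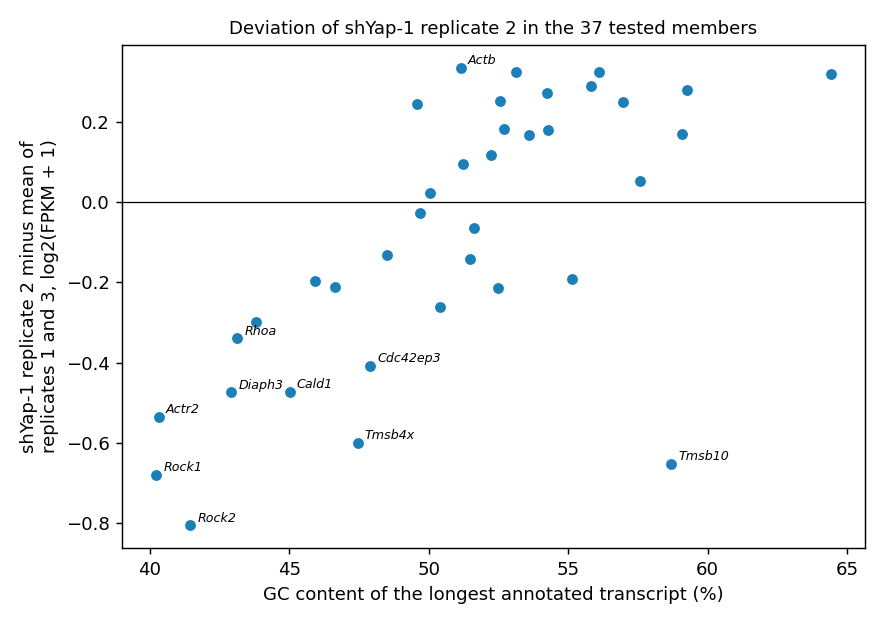
Each point is 1 of the 37 tested members; the x axis is the GC content (%) of its longest annotated transcript and the y axis the log2(FPKM + 1) of shYap-1 replicate 2 minus the mean of replicates 1 and 3. Members of low GC content such as Rock2 (-0.81) and Rock1 (-0.68) lie below 0, GC-rich members mostly above, and Tmsb10 (-0.65) lies off the trend.

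Promoter sequences from RefSeq (GRCm38.p6, the build named mm10 in the submitters' processing notes) were found for 36 members, each a window from 250 bases before to 50 bases after the annotated start, 45 windows in all. Actb, Tagln, Rock1 and Diaph1 had no entry. A CArG box was counted only as the exact letters CC, 6 of A or T, then GG, on either strand. Near matches, such as CCCTATATGG in the window of Acta2, were left out. A box was present in the windows of 6 of the 36 members (16.7%) and in those of 488 of 27025 genes (1.81%). The 6 were Srf, Actg1, Cnn2, Myl6, Myl9 and Vil1. The list was drawn up around SRF, so this share is a description of the list. The letters GGAATG, the core bound by TEAD factors, were found on either strand in the windows of 9 of 36 members (25%), among them Acta2, Tpm1, Myl12a, Myh10 and Tagln2, and of 4481 of 27025 genes (16.6%). A match is neither a bound site nor a cause. Below are the 120 bases before the start of the 4 tested members with a CArG box, shown because Srf itself and the calponin, light chain and cytoplasmic actin genes carry the element that defines this gene group. Sequences run 5′ to 3′ on the gene's strand with CArG boxes in capitals. Srf holds 2 of them, 10 bases apart. Myl6 has windows at 2 annotated starts: the box lies before the downstream start, which is the one printed, and the window of the upstream start (chr10:128493837-128494136) holds none.
Srf (chr17:46556163-46556282, minus strand): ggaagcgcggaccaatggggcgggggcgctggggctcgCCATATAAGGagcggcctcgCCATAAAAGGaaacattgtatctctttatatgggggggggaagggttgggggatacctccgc
Cnn2 (chr10:79988480-79988599, plus strand): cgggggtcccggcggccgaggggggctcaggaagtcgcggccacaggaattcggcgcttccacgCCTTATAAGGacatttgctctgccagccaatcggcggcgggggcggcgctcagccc
Myl6 (chr10:128493010-128493129, minus strand): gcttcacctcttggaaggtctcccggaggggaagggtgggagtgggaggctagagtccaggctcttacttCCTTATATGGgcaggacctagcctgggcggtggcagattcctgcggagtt
Actg1 (chr11:120348496-120348615, minus strand): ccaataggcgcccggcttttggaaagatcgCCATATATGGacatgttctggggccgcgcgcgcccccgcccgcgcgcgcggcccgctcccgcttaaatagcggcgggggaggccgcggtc

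Across the list, changes went both ways. With shYap-1, 18 of the 37 tested members rose (48.6%) and 7 fell (18.9%), against 37.6% and 27.6% of the 10647 genes tested. With shYap-2, 17 rose (45.9%) and 13 fell (35.1%), against 43.2% and 30.5% of 10615 genes. Taken in either direction, 67.6% and 81.1% of the members were called with shYap-1 and shYap-2, close to the 65.2% and 73.7% of all genes, so the share of members called says little about this list in particular. Their median log2 fold changes were 0.22 and 0.11, beside 0.07 and 0.08 over all genes. Both comparisons share the 3 control libraries. With both hairpins, 17 members rose (45.9%, against 36.2% of 10583 genes), 7 fell (18.9%, against 25.9%) and 6 were called with neither. The members that rose, here and with each hairpin, include Acta2 and Tagln. Both passed the filter only through the knockdown libraries, so both had to differ to be tested. In all, 24 members were called the same way with both (64.9%, against 62.1%). Limk1 passed the threshold with shYap-1 alone and 6 loci with shYap-2 alone, and none of these 7 differed between the hairpins in the direct contrast given further on. Rescaling the libraries shifted the log2 FPKM of every gene by -0.12 or -0.11 (shYap-1) and by -0.11 or -0.10 (shYap-2) against shCTRL. With shYap-1, 16 members then rose and 11 fell, 15 rose and 12 fell with the GC trend removed, and 18 rose and 11 fell without replicate 2. With shYap-2, 16 rose and 16 fell under either scaling, and 15 rose and 13 fell with the GC trend removed. Shares of all genes were counted in the main fit only, so these counts describe the members alone.

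**Figure D2:**
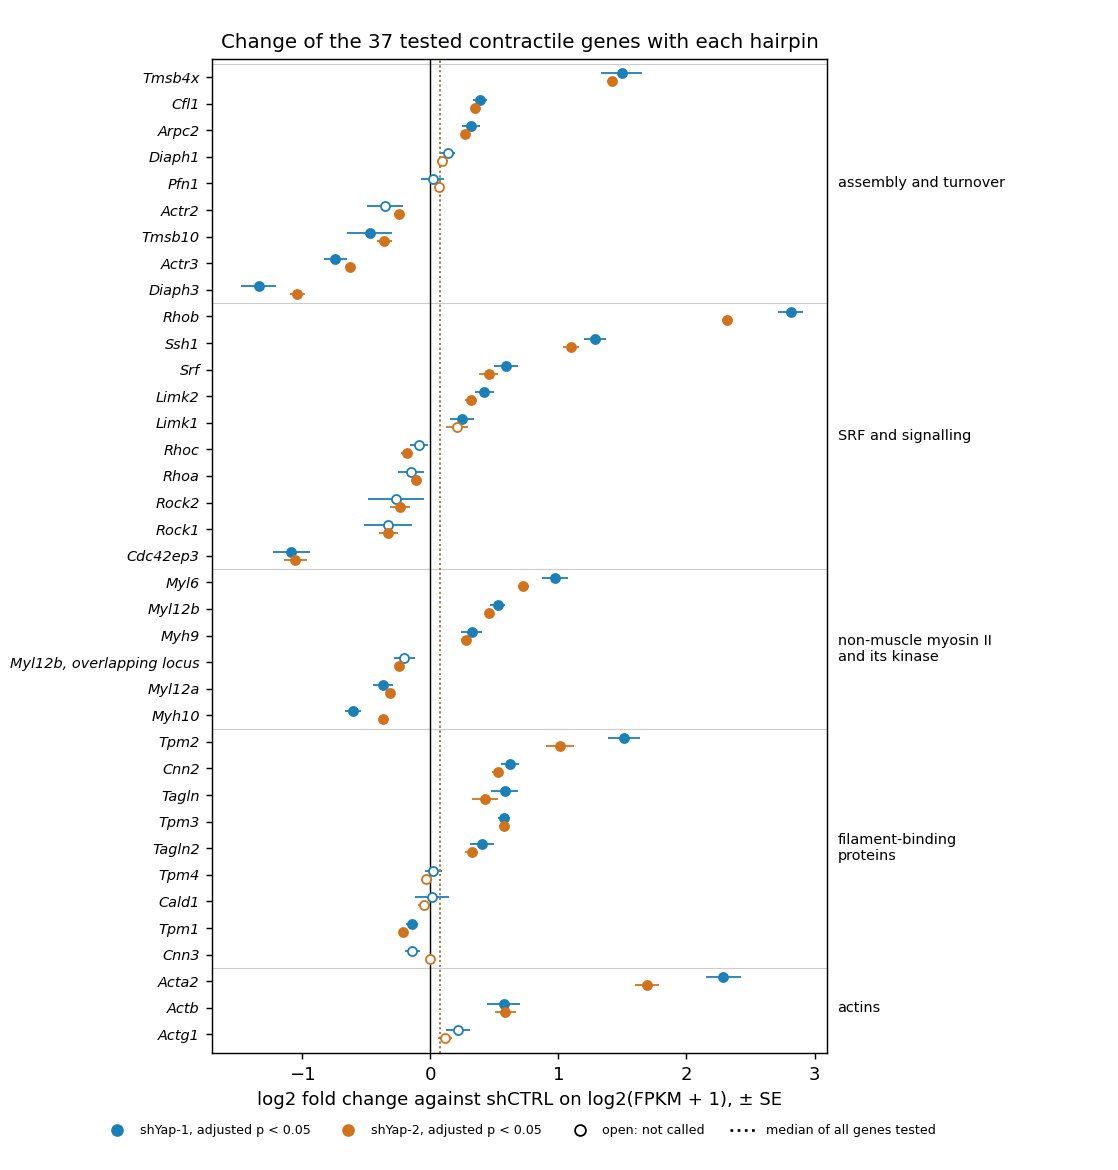
The x axis is the log2 fold change against shCTRL on log2(FPKM + 1) with its standard error, for the 37 tested members by role; filled points passed the adjusted p threshold and open points did not. Rhob (2.81 and 2.32) and Acta2 (2.29 and 1.69) lie farthest right, and Diaph3 (-1.34 and -1.04) and Cdc42ep3 (-1.08 and -1.05) farthest left.

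Among the actins, the cytoplasmic β-actin gene Actb (chr5:142903115-142906754) rose by about the same amount with each hairpin, the cytoplasmic γ-actin gene Actg1 (chr11:120345690-120348542) did not pass the test, and the smooth muscle α-actin gene Acta2 went from almost no fragments to a low level. Actb FPKM were 1300.0, 1454 and 1717 in shCTRL, 2022, 2578 and 2060.2 for shYap-1, and 2239.7, 2258 and 2169.7 for shYap-2. All 6 knockdown libraries lay above all controls, and the controls themselves spread widely. Actb rose by 0.58 with shYap-1 (SE 0.129, adjusted p = 0.00566) and by 0.59 with shYap-2 (SE 0.0827, adjusted p = 0.000169). For Actg1, whose protein differs from β-actin by a handful of residues, FPKM were 1605, 1747 and 1905 in shCTRL, 1902, 2285 and 1932 for shYap-1, and 1868, 1891 and 1913 for shYap-2. The groups overlapped: replicate 1 of shYap-1 and replicates 1 and 2 of shYap-2 were below the highest control. The fold changes of Actg1 were 0.22 (95% interval -0.01 to 0.44, adjusted p = 0.0793) and 0.11 (-0.01 to 0.24, adjusted p = 0.0858), which does not show that it was unchanged. With trimmed-mean scaling of the libraries they were 0.10 and 0.006, and with the GC trend removed 0.04 and -0.04. Actg1 passed the test with shYap-1 in 1 fit of all 9 libraries. With shYap-2 it passed with a replicate block and without shCTRL replicate 3. Actb thus made up 45.9% ± 1.38 (SD, n = 3) of the summed actin FPKM in shCTRL, 52.0% ± 0.831 in shYap-1 cells and 54% ± 0.762 in shYap-2 cells. The 2 cytoplasmic actin genes are near-identical in their coding sequence, and how reads shared between them were assigned is not given in the sources used here.

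Acta2 (chr19:34241090-34255590), the actin gene of smooth muscle and of contractile fibroblasts, had FPKM of 0.08, 0.07 and 0.10 in shCTRL, 3.27, 4.93 and 4.86 for shYap-1, and 2.83, 2.38 and 2.29 for shYap-2. These values stand for an estimated 4.3, 3.4 and 5.3 fragments in the controls and for 109.6 to 261.5 in the knockdown libraries. The 3 groups did not overlap: the controls were lowest and shYap-1 highest. Acta2 rose by 2.29 with shYap-1 (SE 0.138, adjusted p = 9.79e-06) and by 1.69 with shYap-2 (SE 0.0940, adjusted p = 3.87e-07); with a pseudocount of 0.1 these values were 4.58 and 3.82. Even so, it was about 0.1% of the actin FPKM in shYap-1 cells (0.102% ± 0.0192, n = 3). It passed the filter only through the knockdown libraries, as did Tagln, so that both had to differ to be tested.

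Markers of other cell types stand here beside these low-level genes. The summed FPKM of 8 smooth muscle and pericyte markers was 5.85 to 6.59 in shCTRL, 9.76 to 12 with shYap-1 and 9 to 10 with shYap-2. Of these, Mcam was the sole gene with a group mean of at least 1, and the smooth muscle genes Myh11, Synpo2 and Lmod1 did not exceed 0.07. Actg2, the enteric smooth muscle actin gene of the same marker list, went with Acta2: it had 0.06 to 0.15 FPKM in shCTRL, 0.89 to 1.06 with shYap-1 and 0.19 to 0.54 with shYap-2. Fibroblast markers (9 genes, of which Pdgfra and Postn reached 1) summed to 9.30 to 9.77, 16.2 to 19 and 13.3 to 14.5. These 2 genes went opposite ways, Postn from 4.89 to 5.28 in shCTRL to 13.2 to 15.6 and 10.3 to 11.4 with the hairpins, and Pdgfra from 3.42 to 4.13 to 1.84 to 2.17 and 1.88 to 2.28. The 9 epithelial markers, all at 1 or more, summed to 2589 to 2778, 3095 to 3584 and 3159 to 3225. Endothelial markers summed to at most 0.39 in every library, and leukocyte markers to 8.16 to 8.65, 5.07 to 6.03 and 5.13 to 5.75. Cd68, the sole leukocyte marker with a group mean of 1, was lower in the knockdown libraries (7.69 to 7.95, 3.82 to 4.99 and 4.15 to 4.72), while Csf1r (0.12 to 0.32, 0.40 to 1.31 and 0.35 to 0.61), Itgam and Ptprc were higher at low levels. The part of other cell types in the low-level genes Acta2, Tagln and Tpm2 was not tested.

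Proteins that bind along filaments came next, 10 genes of which 9 were tested. Of these, 5 rose and 1 fell with both hairpins, where 36.2% and 25.9% of all genes did. The 5 include Tagln, which passed the filter only through the knockdown libraries. Transgelins and calponins stabilise filaments and dampen myosin. Tagln (transgelin, a classical SRF target) had FPKM of 0.74, 0.48 and 0.49 in shCTRL, 1.48, 1.12 and 1.44 for shYap-1, and 1.11, 1.02 and 1.18 for shYap-2. Its knockdown libraries were all above the controls, by 0.58 (SE 0.109, adjusted p = 0.00236) and 0.43 (SE 0.1003, adjusted p = 0.00394), at a level barely above the filter. Its abundant relative Tagln2 ranged from 291.7 to 336.3 FPKM in shCTRL and from 379.6 to 468.5 in the knockdown libraries, which did not overlap (0.40 and 0.32). With the trend on GC content removed from each library, the values of Tagln2 were 0.14 and 0.09 and no longer passed the test.

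Calponin 2, encoded by Cnn2, is the calponin of non-muscle cells, and its gene carries the CArG box printed above. FPKM of Cnn2 were 96.4, 95.6 and 105.6 in shCTRL, 148.2, 165.4 and 146.1 for shYap-1, and 140.6, 145.5 and 144.2 for shYap-2. The knockdown libraries lay clear of the controls, higher by 0.62 (SE 0.0706, adjusted p = 0.000190) and 0.53 (SE 0.0422, adjusted p = 3.83e-06), values that were 0.41 and 0.35 with the GC trend removed. Calponin 3 behaved differently: Cnn3 had fold changes of -0.14 (adjusted p = 0.0658) and 0.00 (adjusted p = 0.985), the latter turning to -0.11 or -0.10 when the libraries were rescaled. Cnn1, the smooth muscle calponin, did not exceed 0.48 FPKM in any library and was listed at 0 in 2 controls. The caldesmon gene Cald1 did not pass the test with either hairpin (0.01 and -0.05).

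Tropomyosins form a cable along the filament and set which myosins and severing factors can reach it; Tpm1, Tpm3 and Tpm4 made up nearly all of their FPKM. Tpm3 had FPKM of 143.2, 141.6 and 145.0 in shCTRL, 212.3, 216.2 and 213.1 for shYap-1, and 216.1, 223.9 and 203.3 for shYap-2. The knockdown libraries, which overlapped each other, were far above the narrow range of the controls, and Tpm3 rose with both hairpins (0.57, SE 0.0465, adjusted p = 3.51e-05, and 0.58, SE 0.0383, adjusted p = 1.11e-06). Tpm2, the muscle β-tropomyosin gene, had FPKM of 1.44, 1.15 and 0.85 in shCTRL, 5.70, 4.58 and 5.06 for shYap-1, and 3.30, 3.49 and 3.16 for shYap-2. Its groups were fully separate, with shYap-1 highest, and the rises were 1.52 (SE 0.126, adjusted p = 4.01e-05) and 1.02 (SE 0.108, adjusted p = 2.60e-05). Tpm1 fell by 0.14 (adjusted p = 0.0322) and 0.21 (adjusted p = 9.32e-05), and Tpm4 was not called (0.03 and -0.04). The shYap-1 call of Tpm1 was lost when any single control, or replicate 1 or 3 of shYap-1, was left out (-0.15 to -0.13). The tropomyosin total was 873.6 ± 10.7 FPKM in shCTRL, 914.2 ± 26.3 with shYap-1 and 881.5 ± 7.74 with shYap-2 (SD, n = 3). Within it, the share of Tpm1 was 49.2% in shCTRL, 42.6% in shYap-1 cells and 42.2% in shYap-2 cells, and that of Tpm3 was 16.4%, 23.4% and 24.3%.

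**Figure D3:**
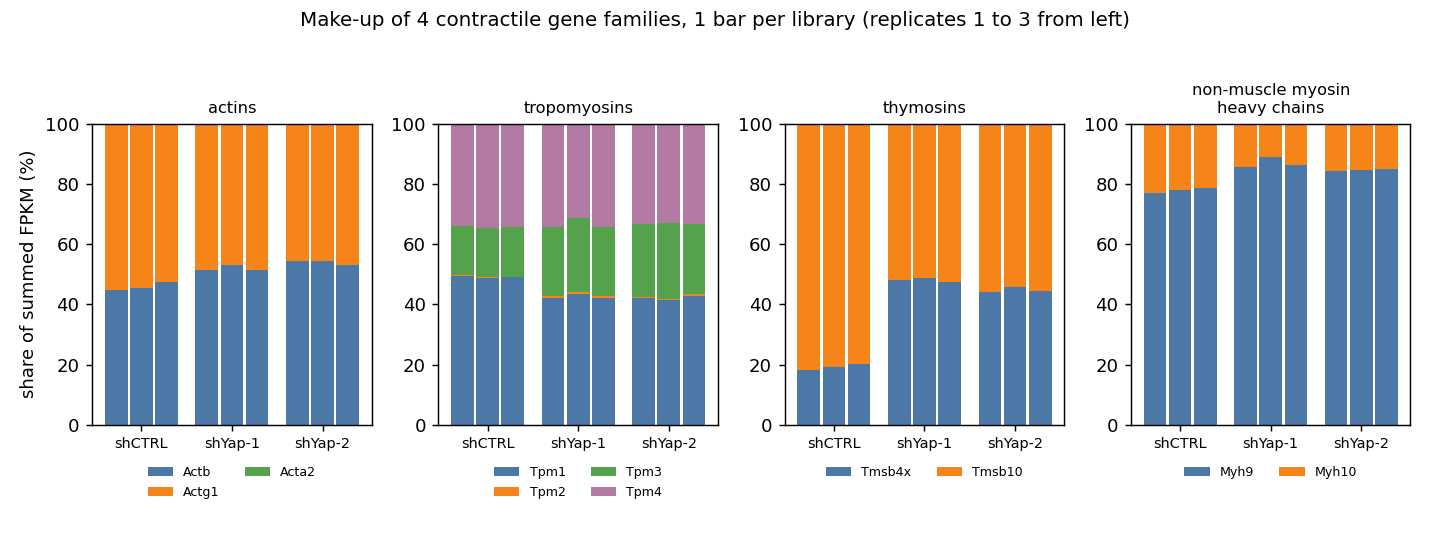
Each bar is 1 library, and its segments are the shares (%) of the family's summed FPKM taken by each gene; libraries stand in replicate order within each group. Tmsb4x takes 19.1% of the thymosins on average in shCTRL and 48.0% and 44.8% with the hairpins of each group, while the segments of replicates are nearly level.

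Non-muscle myosin II is a pair of heavy chains with an essential light chain, encoded by Myl6, and a regulatory light chain, encoded by Myl12a, Myl12b and Myl9, whose phosphorylation switches the motor on. Myl6 (chr10:128490860-128494145) had FPKM of 647.6, 683.8 and 730.3 in shCTRL, 1240.5, 1569 and 1262 for shYap-1, and 1117, 1178 and 1119 for shYap-2. Every knockdown library was far above the highest control; the rises were 0.97 (SE 0.1003, adjusted p = 0.000115) and 0.73 (SE 0.0446, adjusted p = 6.85e-07). FPKM of Myl12a ranged from 223.3 to 224.1 in shCTRL, from 153.2 to 184.3 with shYap-1 and from 176.2 to 185.4 with shYap-2, and it fell with both (-0.37, SE 0.0789, adjusted p = 0.00444, and -0.31, SE 0.0299, adjusted p = 1.22e-05). Myl12b, its neighbour on chromosome 17, had FPKM of 55.9, 54.7 and 55.1 in shCTRL, 77.6, 84.5 and 77.95 for shYap-1, and 75.0, 76.8 and 76.7 for shYap-2. The groups did not overlap, and Myl12b rose by 0.53 (SE 0.0566, adjusted p = 0.000145) and 0.46 (SE 0.0316, adjusted p = 1.47e-06).

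The direction of Myl12b is uncertain, because a second locus of the same symbol (chr17:70974119-71002208, GRCm38) overlaps both genes. Of its 1201 exonic bases, 462 are also exonic in Myl12a and 739 in the first Myl12b locus. This second locus held most of the signal, with FPKM of 896.5, 937.1 and 947.2 in shCTRL, 755.8, 914.4 and 756.6 for shYap-1, and 776.8, 799.8 and 767.0 for shYap-2. It did not pass the test with shYap-1 (-0.20, adjusted p = 0.0674) and fell with shYap-2 (-0.25, adjusted p = 8.32e-05). Summed over both Myl12b loci, FPKM were 952.4 to 1002.3 in shCTRL, 833.4 to 998.9 with shYap-1, which overlapped the controls, and 843.8 to 876.6 with shYap-2, which were below them. Summed over all 3 loci with Myl12a, FPKM were 1175.7 to 1226.2 in shCTRL, 1017.8 to 1152.1 with shYap-1 and 1021.5 to 1052.8 with shYap-2, so all knockdown libraries were below the controls. Reads from these loci cannot be told apart in the deposited values. Myl9, the smooth muscle form, did not exceed 0.90 FPKM in any library, and Mylk, which encodes the kinase of the regulatory light chain, did not exceed 0.76.

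Heavy chains shifted towards myosin IIA. Myh9, which encodes its heavy chain, had FPKM of 197.7, 202.8 and 213.2 in shCTRL, 237.3, 287.7 and 245.9 for shYap-1, and 241.9, 248.9 and 252.9 for shYap-2. The knockdown libraries, which overlapped each other, were all above the controls, and Myh9 rose by 0.32 (SE 0.0809, adjusted p = 0.00927) and 0.28 (SE 0.0355, adjusted p = 9.04e-05). With the GC trend removed these values were 0.05 and 0.04, and with rescaled libraries 0.21 with shYap-1; none of these passed the test. Myh10, which encodes the heavy chain of myosin IIB, had FPKM of 59.4, 57.6 and 58.3 in shCTRL, 40, 35.6 and 38.7 for shYap-1, and 44.8, 45.3 and 44.8 for shYap-2. It fell by 0.61 (SE 0.0622, adjusted p = 0.000115) and 0.37 (SE 0.0329, adjusted p = 7.71e-06), with the 3 groups fully separate and shYap-1 lowest. Myh9 was 77.8% of the summed FPKM of both heavy chains in shCTRL, 87.0% in shYap-1 cells and 84.6% in shYap-2 cells.

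**Figure D4:**
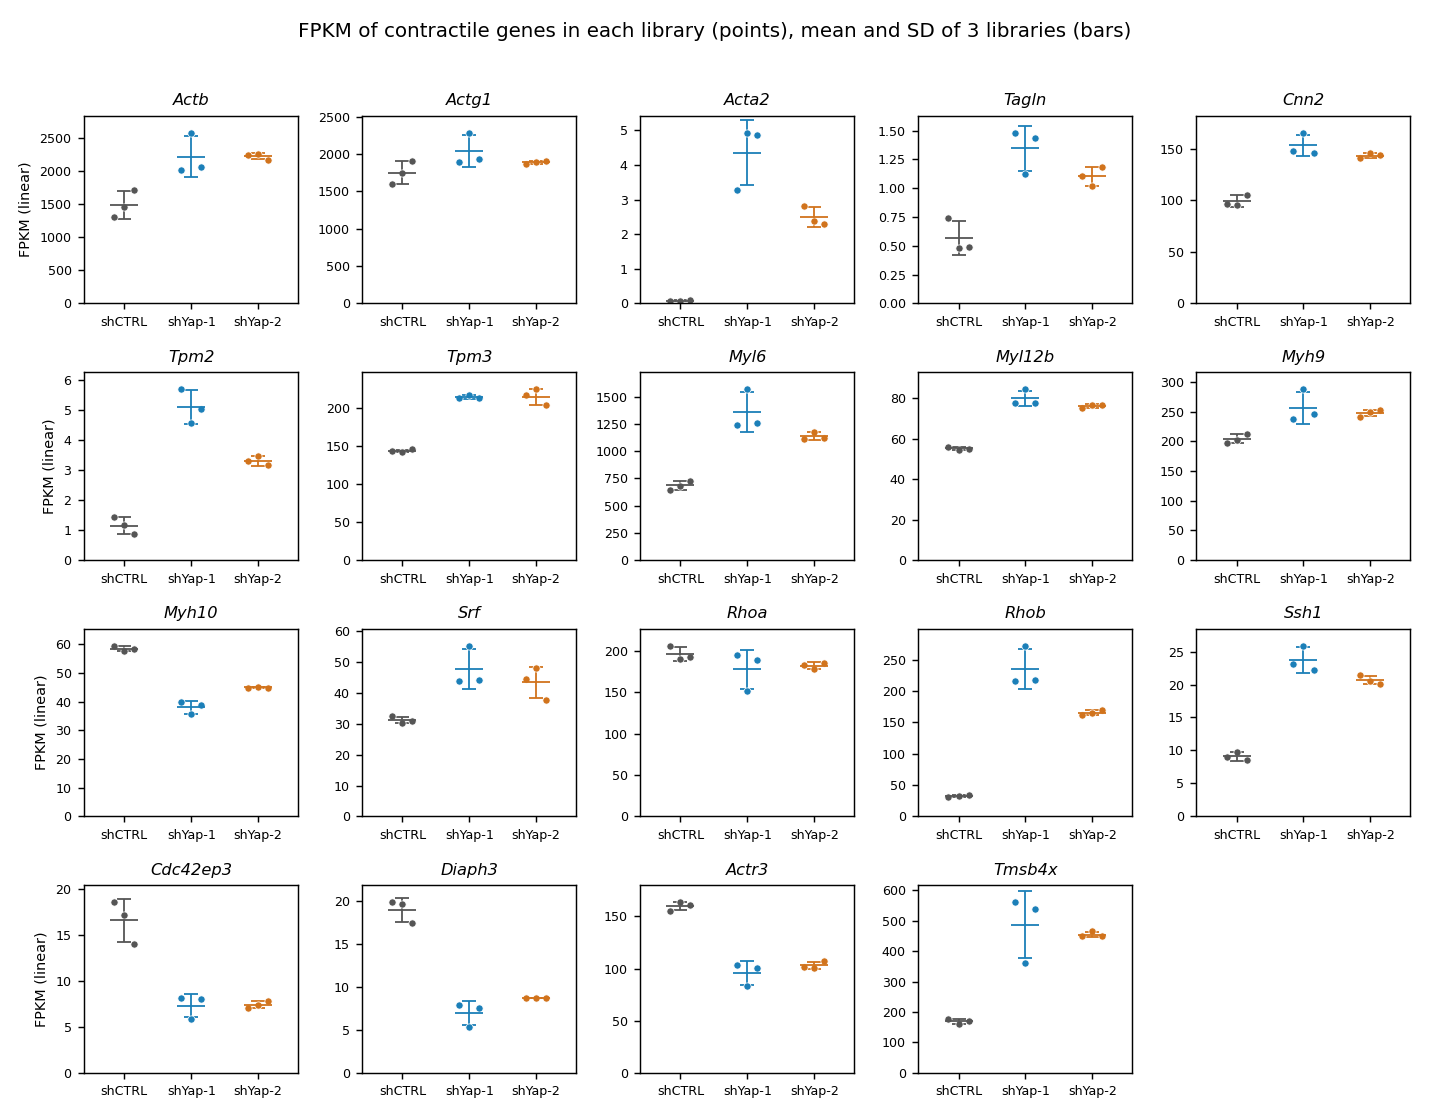
FPKM (linear axis from 0) of 19 members in each library, as points with the mean and SD of the 3 libraries of a group. Rhob, Ssh1, Tmsb4x, Myl6 and Tpm3 are above every control in all 6 knockdown libraries, Cdc42ep3, Diaph3, Actr3 and Myh10 are below, Actg1 overlaps the controls with both hairpins, and Rhoa overlaps them with shYap-1 and lies just below them with shYap-2.

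Srf encodes serum response factor. The gene, whose own promoter holds the pair of CArG boxes shown above, had FPKM of 32.4, 30.5 and 30.9 in shCTRL, 44.0, 55.3 and 44.2 for shYap-1, and 44.5, 48.0 and 37.8 for shYap-2. All knockdown libraries were above the controls although they varied more among themselves. Srf rose by 0.59 (SE 0.0961, adjusted p = 0.00116) and 0.46 (SE 0.0770, adjusted p = 0.000526), values that were 0.38 and 0.25 with the GC trend removed and still passed the test.

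Rhob showed the largest fold change of the tested members with both hairpins on the log2(FPKM + 1) scale. The gene (chr12:8497661-8500009) encodes RhoB, a short-lived small GTPase of endosomes and the plasma membrane that is induced by growth factors and stress. FPKM were 30.8, 32.3 and 34.2 in shCTRL, 215.2, 271.8 and 218.1 for shYap-1, and 161.9, 164.7 and 169.8 for shYap-2. The groups were far apart, and mean FPKM was 7.25 and 5.10 times that of the controls. On the log2 scale Rhob rose by 2.81 (SE 0.0982, adjusted p = 1.33e-06) and 2.32 (SE 0.0431, adjusted p = 1.76e-09). Rhoa, the main activator of stress fibres, had FPKM of 206.4, 191.0 and 193.4 in shCTRL, 194.9, 151.3 and 188.8 for shYap-1, and 183.3, 178.0 and 186.2 for shYap-2. It overlapped the controls with shYap-1 (-0.15, adjusted p = 0.217) and fell slightly with shYap-2 (-0.11, adjusted p = 0.0243), a fall that with the GC trend removed was -0.06 and did not pass. Rhoc had fold changes of -0.09 (adjusted p = 0.320) and -0.18 (adjusted p = 0.00543).

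Kinase and phosphatase genes of the list moved in different directions. The genes Rock1 (-0.33 and -0.33) and Rock2 (-0.27 and -0.24) encode kinases that raise myosin light chain phosphorylation, and passed the test as lower for shYap-2 (adjusted p = 0.00297 and 0.0209) but did not pass with shYap-1 (adjusted p = 0.158 and 0.310), where replicate 2 was far below the others. LIM kinases phosphorylate and silence cofilin, and slingshot phosphatases reactivate it. Limk2 rose by 0.42 and 0.32, and Limk1 passed the test with shYap-1 by a narrow margin (0.25, adjusted p = 0.0483) and not with shYap-2 (0.21, adjusted p = 0.0591); the shYap-1 value turned to -0.0233 with the GC trend removed. Ssh1, a slingshot gene, had FPKM of 9.01, 9.84 and 8.51 in shCTRL, 23.1, 25.9 and 22.2 for shYap-1, and 21.4, 20.5 and 20.1 for shYap-2. Its lowest knockdown library was above 2 times its highest control, with rises of 1.29 (SE 0.0863, adjusted p = 1.52e-05) and 1.101 (SE 0.0604, adjusted p = 3.55e-07). Cdc42ep3, whose product is an effector of the GTPase CDC42 that links septins to actin, had FPKM of 18.6, 17.2 and 14.1 in shCTRL, 8.12, 5.84 and 8.04 for shYap-1, and 7.10, 7.40 and 7.86 for shYap-2. The knockdown libraries lay well below the controls, by -1.08 (SE 0.144, adjusted p = 0.000424) and -1.05 (SE 0.0924, adjusted p = 7.12e-06), and shYap-2 minus shYap-1 was 0.03 (95% interval -0.25 to 0.32).

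Filament nucleation was described by the formins and the Arp2/3 complex. Diaph3 (chr14:86655367-87141235), which encodes the formin mDia2, had FPKM of 19.9, 19.6 and 17.4 in shCTRL, 7.95, 5.32 and 7.61 for shYap-1, and 8.72, 8.73 and 8.69 for shYap-2. Controls and knockdown libraries were wide apart, with log2 fold changes of -1.34 (SE 0.140, adjusted p = 0.000122) and -1.04 (SE 0.0598, adjusted p = 4.73e-07). Diaph1, which encodes the RhoA effector mDia1, was not called (0.14 and 0.09, adjusted p = 0.0766 and 0.0773).

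Subunit genes of the Arp2/3 complex, which starts branches on existing filaments, moved in opposite directions. Actr3, which encodes the actin-related subunit ARP3, had FPKM of 155.4, 163.5 and 161.3 in shCTRL, 103.5, 82.9 and 100.96 for shYap-1, and 102.0, 100.6 and 106.9 for shYap-2. The hairpin libraries were all below the controls, by -0.74 (SE 0.0885, adjusted p = 0.000244) and -0.63 (SE 0.0356, adjusted p = 4.22e-07). Actr2, for the partner subunit ARP2, had fold changes of -0.35 (adjusted p = 0.0601) and -0.25 (adjusted p = 0.000134), while Arpc2 rose by 0.32 and 0.27. Outside the list, 5 of the 6 other ARPC genes rose with each hairpin, where 37.6% (shYap-1) and 43.2% (shYap-2) of all genes tested rose. These ARPC genes were led by Arpc1a (1.14 and 0.96) and Arpc5 (0.93 and 0.72), and Arpc3 was not called (0.13 and 0.03).

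Cofilin, profilin and thymosins control the pool of monomers: cofilin severs old filaments, profilin feeds monomers to growing ends, and β-thymosins hold monomers in reserve. Tmsb4x (chrX:167207093-167209315), which encodes thymosin β4, had FPKM of 177.6, 161.1 and 170.0 in shCTRL, 560.8, 362.8 and 540.0 for shYap-1, and 449.6, 466.0 and 449.6 for shYap-2. The lowest knockdown value, that of shYap-1 replicate 2, was still above 2 times the highest control. Tmsb4x rose by 1.49 (SE 0.158, adjusted p = 0.000131) and 1.42 (SE 0.0388, adjusted p = 7.33e-09). The other thymosin, Tmsb10, ranged from 676.5 to 804.3 FPKM in shCTRL, from 382.8 to 605.1 with shYap-1 and from 554.4 to 568.0 with shYap-2. Tmsb10 fell by 0.47 with shYap-1 (SE 0.177, adjusted p = 0.0477), which did not pass without any single shCTRL library (-0.52 to -0.39) and was -0.26 without shYap-1 replicate 2, and by 0.36 with shYap-2 (SE 0.0597, adjusted p = 0.000496).

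As a share of both thymosins, Tmsb4x was 19.1% ± 0.997 (SD, n = 3) of their summed FPKM in shCTRL, 48.0% ± 0.642 with shYap-1 and 44.8% ± 0.788 with shYap-2. Replicate 2 of shYap-1, low in both genes, had a share within the range of its group (47.4% to 48.7%). With 3 libraries a group, an exact permutation test of such a share cannot go below 0.1, so none was made. The cofilin gene Cfl1 rose by 0.39 (adjusted p = 0.000531) and 0.35 (adjusted p = 4.12e-06). The profilin gene Pfn1 was not called (0.02 and 0.07) and turned to -0.24 and -0.16 with the GC trend removed. Vil1, which encodes the villin of intestinal microvilli, did not exceed 0.06 FPKM.

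Directly compared in a model of all 9 libraries, shYap-2 and shYap-1 differed for 4 of 37 members (10.8%, against 3.29% of 10733 genes), with 1 higher in shYap-2 (2.70%, against 1.93%) and 3 lower (8.11%, against 1.36%). Acta2 was lower with shYap-2 by -0.60 (SE 0.128, adjusted p = 0.0394), Tpm2 by -0.50 (SE 0.112, adjusted p = 0.0447) and Rhob by -0.50 (SE 0.0845, adjusted p = 0.0180), and Myh10 was higher by 0.24 (SE 0.0514, adjusted p = 0.0419). All 4 had changed further from the controls with shYap-1. Yap1 was 0.22 higher with shYap-2 (adjusted p = 0.0992), and its part in these differences was not tested. Each of the 4 lost its call without any 1 of the shYap-2 libraries, and Acta2 and Myh10 also without any 1 of the controls, with no change of sign.

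The rest of the actin machinery was read from 4 lists of other genes. The counts stand against 37.6% of all genes higher and 27.6% lower in shYap-1 cells, and 43.2% and 30.5% in shYap-2 cells. Of 34 tested genes for capping, severing, monomer binding and crosslinking, 22 were higher and 4 lower in shYap-1 cells, and 23 and 5 in shYap-2 cells, with medians of 0.44 and 0.38 beside 0.07 and 0.08 over all genes. They included the slingshot gene Ssh3 (1.31 and 1.18), Marcksl1 (1.25 and 1.18), the profilin gene Pfn2 (1.11 and 1.12) and, in the other direction, the bundling protein gene Espn (-1.28 and -1.09), which passed the filter only through the controls (mean FPKM 2.66, against 0.477 and 0.677) and so had to differ to be tested. Of 21 genes of the Arp2/3 complex, the WAVE complex and formins, 10 rose and 4 fell in shYap-1 cells, and 13 and 4 in shYap-2 cells (medians 0.18 and 0.17). The formin genes of this list went both ways. Inf2 (0.99 and 0.93), Fmnl3 (0.69 and 0.65) and Fmnl2 (0.43 and 0.28) rose, Daam1 (-0.68 and -0.67) and Fmnl1 (-0.59 and -0.29) fell, and Diaph2 was not called.

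Against the same background shares (37.6% and 27.6%, 43.2% and 30.5%), of 17 tested SRF cofactors and targets outside the list, 9 rose and 5 fell in shYap-1 cells, and 12 and 5 in shYap-2 cells (medians 0.32 and 0.30). Csrp1, for a LIM protein of actin filaments, rose by 1.41 and 1.15 and the integrin gene Itga5 by 1.00 and 0.86, whereas Ccn1, a matricellular gene that both SRF and YAP are known to drive, fell (-1.90 and -2.03), as did Filip1l (-1.09 and -1.19). Of 13 tested genes for other myosins and muscle proteins, 7 rose and 2 fell with each hairpin against those shares, among them the myosin genes Myo10 (0.97 and 0.78), Myo18a (0.57 and 0.59) and Myo6 (0.49 and 0.41) and, falling, the smoothelin gene Smtn (-0.70 and -0.52).

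**Figure D5:**
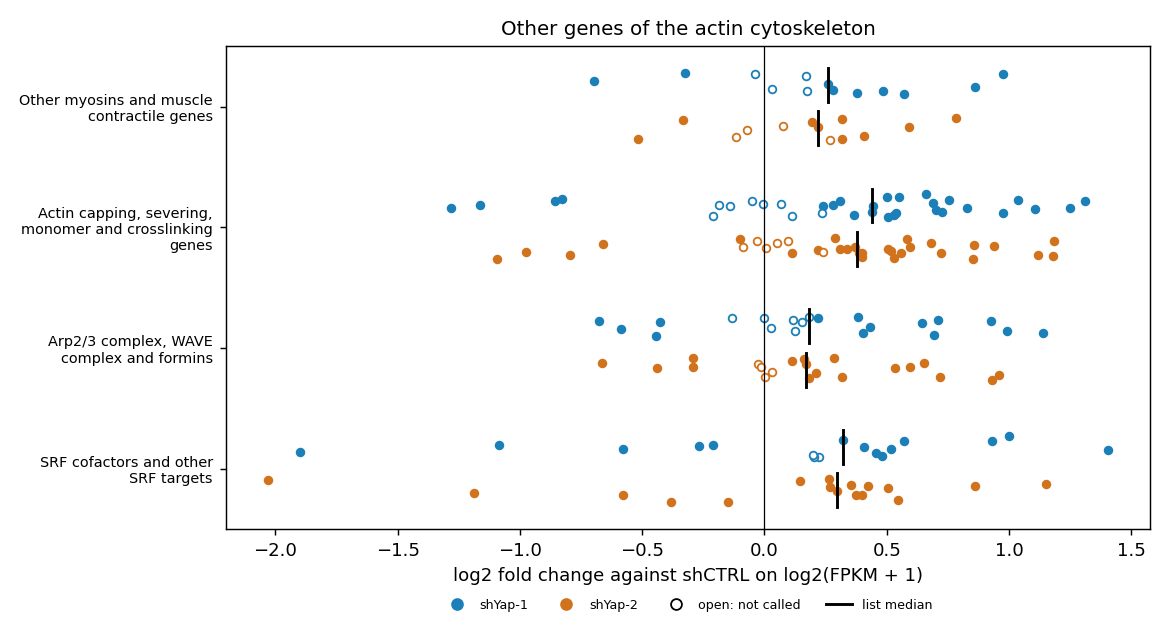
Log2 fold change against shCTRL on log2(FPKM + 1) of the tested genes of 4 further lists, 1 point per gene and hairpin, open where the test was not passed; vertical bars are list medians. The medians of the capping and crosslinking genes are 0.44 and 0.38, and those of the SRF cofactors and targets 0.32 and 0.30.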

How the data were processed

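Polyadenylated RNA of 9 libraries was measured as FPKM, which the authors deposited in 2 tables, 1 per hairpin, with 16530 and 16358 genes and the same shCTRL values in both. The submitters' processing notes list StringTie 1.3.4, RSEM, HISAT2 2.1.0, fastp 0.18.0 and mm10 without their roles. Whether strand was used, and the annotation and filters, are not given in the sources used here. Genes were annotated with GENCODE vM21 (GRCm38). Each hairpin was compared with shCTRL in its own table, and shYap-2 with shYap-1 in 1 model of all libraries, by limma (version 3.58.1, R version 4.3.3, functions lmFit and eBayes, trend allowed) on log2(FPKM + 1), for genes that reached an FPKM of 1 in 3 or more libraries and with a Benjamini-Hochberg threshold of 0.05. The fits were tested on simulated data. Since no exact permutation p for 3 libraries against 3 is below 0.1, smaller p-values rest on the model.

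Depth was estimated from the steps of FPKM times exonic length in genes with 1 transcript, and counting error beyond it is unknown. Full values are given for members called with both hairpins in the same direction with an absolute log2 fold change of at least 0.5 with either, for members differing between hairpins, and for Actb, Actg1, Acta2, Myh9, Srf and Rhoa. Up to 4 genes were named per further list by the size of their change, and a few relatives were named beside them. Results of 1 further gene list are not reported here. The members and lists were chosen with earlier results of these data known. Alternatives were 2 scalings, no filter, an FPKM minimum of 5, a pseudocount of 0.1, removal of a GC trend, no trend in the variance, a replicate block, each library left out, 1 fit of all libraries and a fold change minimum of 0.5. Tables were made with Python 3.11.15, pandas 2.3.3, numpy 2.4.6 and scipy 1.17.1, and figures with matplotlib 3.10.9.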

Additional observations from a re-analysis of the deposited data

Results flagged for a closer look

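The contrast of shYap-2 with shYap-1 passed limma's adjusted threshold for 4 members, each of which had changed in the same direction with both hairpins. Acta2 differed by -0.60 on the log2(FPKM + 1) scale, Tpm2 by -0.50, Rhob by -0.50 and Myh10 by 0.24, each further from the controls with shYap-1. All 4 calls were lost without any 1 of the shYap-2 libraries. The groups of 3 libraries did not overlap for any of the 4.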

How the results depend on the processing

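For the 16 members called with both hairpins and by at least 0.5 with either, all 460 values against shCTRL that the alternatives gave kept their direction and side of the threshold. Settings in which a gene missed the filter gave none. Acta2, Tagln and Tpm2 missed an FPKM minimum of 5 with both hairpins, and Tagln missed the filter with shYap-2 under both scalings. Acta2 and Tagln also missed it without any 1 knockdown library. In the main fit both passed it only through the knockdown libraries, so both had to differ to be tested. Of the 16 members, Acta2, Tpm2, Rhob and Myh10 lost their calls between hairpins under some settings. Over all tested members, 1006 of 1088 values against shCTRL and 587 of 625 between hairpins kept their side of the threshold and, where called, their direction. Counts of members under the alternatives, given next and below, stand alone, as shares of all genes were counted in the main fit only. Against the 7 members that fell with shYap-1, 11 did so with trimmed-mean scaling, 11 with median-of-ratios scaling and 12 with the GC trend removed; where 7 fell with both hairpins, 11 did under each of these 3. A fold change minimum of 0.5 left 4 that fell with shYap-1, 9 that rose and 3 that fell with shYap-2, 9 that rose and 3 that fell with both, and 0 higher and 1 lower in shYap-2 than in shYap-1. With all 9 libraries in 1 fit, 8 fell with shYap-2. Between hairpins, the number higher was 2 with the GC trend removed and 0 without a trend in the variance, and the number lower was 1 with a pseudocount of 0.1, without a filter and with FPKM of at least 5. Leaving out 1 library gave 15 to 18 (rose) and 5 to 11 (fell) with shYap-1, 15 to 20 and 11 to 13 with shYap-2, 15 to 18 and 5 to 10 with both, and 0 to 2 higher and 0 to 7 lower between hairpins; without shYap-1 replicate 2, 11 fell with shYap-1 and 10 with both. Where the main or the alternative fit gave a call, signs turned for Cnn3, Limk1 and Pfn1. Cnn3 with shYap-2 was -0.11 and -0.10 with the scalings. With the GC trend removed, Limk1 with shYap-1 was -0.0233 and Pfn1 was -0.24 and -0.16. Signs of values called in neither fit turned as well, for example that of Actg1 with shYap-2 (-0.04 with the GC trend removed). The cause was not tested.

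The deviations of each library from its group mean, gene by gene, were compared between control and knockdown libraries. Those of same-numbered libraries correlated with r of 0.35, 0.04 and -0.25 (shYap-1) and 0.02, 0.00 and -0.01 (shYap-2). The largest r of each control with a library of another number was 0.31, -0.03 and 0.33 (shYap-1) and 0.01, 0.004 and 0.04 (shYap-2). The numbers were therefore not taken to pair libraries. A replicate block gave 17 that rose and 7 that fell with shYap-1, 19 and 13 with shYap-2, 17 and 7 with both, and 0 higher and 1 lower between hairpins.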

Other observations

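Acta1, the skeletal muscle actin gene, was not a member and is described because of its values. It had a mean FPKM of 1.56 in shCTRL, 3.70 with shYap-1 and 2.13 with shYap-2. It rose with shYap-1 (0.86, adjusted p = 0.000936 by limma) and did not pass the test with shYap-2 (0.27, adjusted p = 0.107). In the direct contrast of shYap-2 with shYap-1, Acta1 was not called. Nor was any other of the 14 genes of its list tested there, where 3.29% of all genes were.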
